A study of Mus musculus with 6 samples.

Results

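The genes described here are the 38 members of the insulin, phosphoinositide 3-kinase (PI3K), mechanistic target of rapamycin (mTOR), and AMP-activated protein kinase (AMPK) signaling pathways. They were picked out of the 55421 genes of the count table by symbol from a fixed name list, and all 38 were found under 1 gene ID each. The list holds a receptor and adaptor arm of 8 genes, a PI3K/AKT arm of 13 genes, an mTOR arm of 9 genes, and an AMPK arm of 8 genes. RNA-seq was performed on total RNA of C2C12 cells, an established mouse myoblast line, in 2 groups of 3 libraries at day 4 of differentiation in vitro. The normal group (C2C12-CUG5) carried a GFP plasmid with 5 CTG repeats, and the DM1 group (C2C12-CUG200) carried the same kind of plasmid with 200 CTG repeats, placed downstream of the GFP coding sequence. Both groups were made by plasmid transfection followed by G418 selection, and both were differentiated in low-serum medium that contained horse serum and added insulin, so the ligand of this pathway was present in every library. Whether the 3 libraries of a group came from separate transfections, clones, or dishes is not stated in the sources used here, and the p-values below therefore measure only the spread between these libraries. The repeats are transcribed from a plasmid and not from *Dmpk*, which limits the cells as a model of myotonic dystrophy type 1 (DM1).

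Insulin binds its receptor tyrosine kinase, which phosphorylates the IRS adaptors and recruits PI3K. The lipid made by PI3K brings AKT to the membrane, where PDK1 and mTOR complex 2 activate it. AKT phosphorylates GSK3 and the FOXO transcription factors, and it releases mTOR complex 1 from inhibition by the TSC proteins, which favors protein synthesis and muscle growth. AMPK is a trimer of an alpha, a beta, and a gamma subunit that is switched on by LKB1 when cellular energy is low and that opposes mTOR complex 1. In skeletal muscle these pathways set glucose uptake, glycogen stores, and fiber size. Insulin resistance is a known feature of DM1 and is linked to altered splicing of the insulin receptor.

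The libraries held 61707889 to 80957325 counts, of which 8.90% to 13.5% fell on mitochondrial genes, and these ranges overlapped between the groups. The relation of a library's level to transcript length did not: across genes, the log2 deviation of a library from the mean correlated with length at 0.10 to 0.12 in the normal libraries and at -0.15 to -0.05 in the DM1 libraries. This trend moved with the group, and results for the members that lose or gain a call, or turn in sign, when length and GC trends are removed (an alternative chosen after seeing the data) are given with their value. DM1 was tested against normal by the quasi-likelihood method of edgeR over the 19005 genes that passed the expression filter, and every adjusted p is Benjamini-Hochberg adjusted over all of them. A gene was called at an adjusted p under 0.05, and a fold change is given as log2 of DM1 over normal. Of 21 myotube markers, 17 were lower in the DM1 group and 0 were higher (1 higher at an unadjusted p under 0.05, 0 by DESeq2). Their summed level was 15805 to 17097 CPM (counts scaled to equal library size) in the normal group and 9613 to 11077 CPM in the DM1 group. *Ttn*, the highest of them in CPM, which is not scaled for transcript length, was at 4430 ± 164 CPM in the normal group and 2361 ± 480 CPM in the DM1 group (mean ± SD, n = 3). Of 7 tested fibroblast markers, 4 were higher and 0 were lower (0 at an unadjusted p under 0.05 and 0 by DESeq2), with summed levels of 3783 to 4208 CPM and 4823 to 5223 CPM. Of 7 adipocyte markers, 5 had at most 3 counts in every library, and the list summed to 7.72 to 10.2 CPM in the normal group and 7.60 to 8.84 CPM in the DM1 group, nearly all of it from *Pparg* (543 to 707 counts in a library). Of 5 leukocyte markers, 3 had at most 3 counts in every library, and the list summed to 3.18 to 3.92 CPM and 3.17 to 4.68 CPM, nearly all of it from *Cd68* (174 to 323 counts). *Pparg* and *Cd68* were chosen after their values were seen. The share of the differences below that goes with myotube content was not tested, and in these bulk libraries fewer cells of a type and less RNA per cell cannot be told apart.

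All 38 genes passed the filter and were tested, with 180 to 15893 counts in a library. Of these, 7 were significantly downregulated in the DM1 group: *Grb2*, *Pik3r3*, *Akt1*, *Akt2*, *Gsk3b*, *Prkaa2*, and *Prkag3*. The count of upregulated genes was 0 (3 at an unadjusted p under 0.05, and 2 by DESeq2). Against this 18.4% of members called lower, 8.73% of all tested genes were called lower and 7.13% were called higher. *Pik3r3*, *Gsk3b*, and *Prkaa2* also passed the fold cutoff of an absolute log2 fold change over 1, which 0.816% of all tested genes passed downward and 1.36% upward. The 3 libraries of each group did not overlap in CPM for 17 of the 38 genes, 14 of them lower and 3 higher in the DM1 group. This is 44.7% of the members, beside 37.2% of all tested genes. Of the 17 genes, 11 were apart in TPM as well, and *Pik3cb*, *Pik3r1*, *Akt2*, *Foxo3*, *Prkab1*, and *Prkab2* were not. The number of downregulated members was 4 without CUG5 library 3 or without CUG200 library 2, and 9 without CUG200 library 3. The number past the fold cutoff was 1 without CUG5 library 2, CUG5 library 3, or CUG200 library 3.

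**Figure D1:**
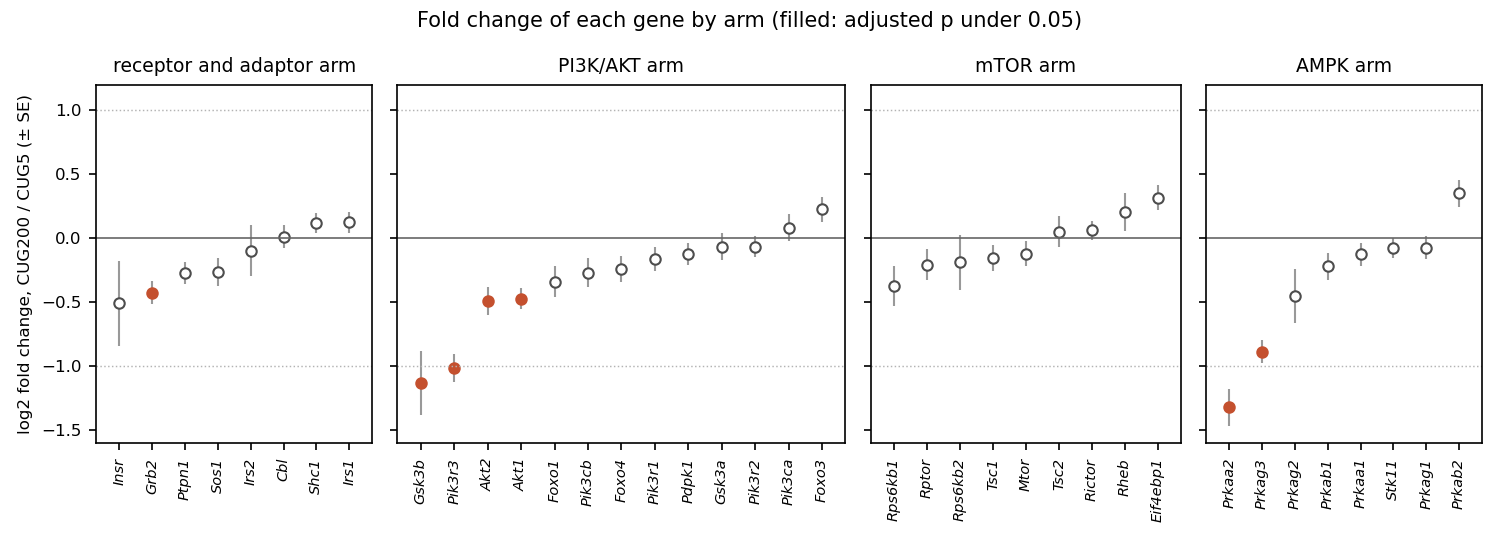
Log2 fold change of DM1 over normal (y axis, with SE) for each of the 38 genes (x axis), in 1 panel per arm. Filled points passed an adjusted p of 0.05 and dotted lines mark an absolute log2 fold change of 1. The 7 filled points all lie below 0, and the mTOR arm holds none.

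The genes past the threshold were counted in each arm, and differences between arms were not tested. The receptor and adaptor arm had 1 of 8 genes lower (12.5%) and the PI3K/AKT arm 4 of 13 (30.8%). The mTOR arm had 0 of 9 lower and the AMPK arm 2 of 8 (25.0%). Over all tested genes, 8.73% were called lower and 7.13% were called higher. No arm had a gene called higher (1 gene each in the PI3K/AKT, mTOR, and AMPK arms, and 0 in the receptor and adaptor arm, at an unadjusted p under 0.05). The median log2 fold change was -0.18 in the receptor and adaptor arm, -0.24 in the PI3K/AKT arm, -0.12 in the mTOR arm, and -0.17 in the AMPK arm, beside 0.02 over all tested genes. The mTOR median was -0.19 on log2(TPM + 1) and -0.21 on log2(TPM + 0.1), where the medians of all genes were -0.06 and -0.09. With length and GC trends removed, the mTOR median turned to 0.026 and the receptor and adaptor median was -0.064. The mTOR median was -0.015 without CUG5 library 2, -0.057 without CUG5 library 3, -0.068 without CUG200 library 1, and -0.20 without CUG200 library 3. The receptor and adaptor median was -0.031 without CUG200 library 1 and -0.11 without CUG5 library 3, and the AMPK median was -0.11 without CUG200 library 1. The summed level of the PI3K/AKT arm was 861 to 916 CPM in the normal group and 648 to 742 CPM in the DM1 group, without overlap. Summed levels include the called genes of an arm (here *Pik3r3*, *Akt1*, *Akt2*, and *Gsk3b*) and are no separate observation. The summed level of the mTOR arm was 589 to 617 CPM in the normal group and 579 to 628 CPM in the DM1 group, a range that enclosed the normal one. The summed AMPK arm stood at 407 to 426 CPM against 355 to 396 CPM, and the receptor and adaptor arm at 513 to 520 CPM against 470 to 520 CPM.

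**Figure D2:**
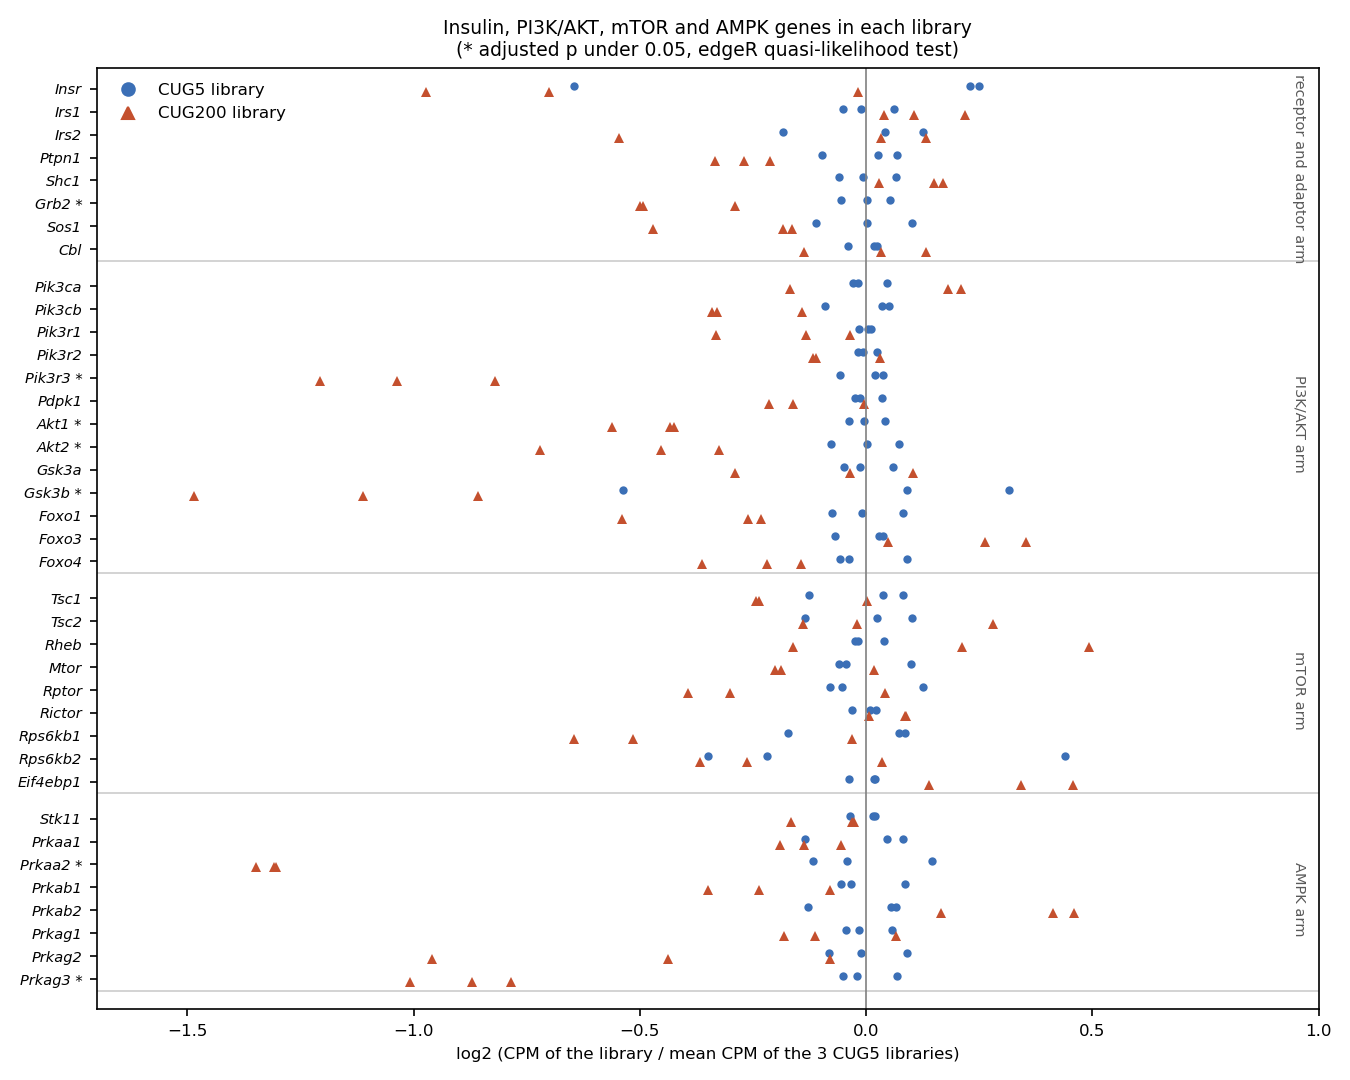
Log2 ratio of each library's CPM to the mean CPM of the 3 normal libraries (x axis) for the 38 genes (y axis), grouped by arm. Circles are the normal libraries, triangles the DM1 libraries, and asterisks mark the 7 called genes, whose triangles all lie left of their circles.

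At the head of the pathway, the insulin receptor gene *Insr* was at 38.1, 37.5 and 20.5 CPM in the 3 normal libraries and at 31.6, 16.3 and 19.7 CPM in the 3 DM1 libraries. Normal library 3 lay among the DM1 libraries and DM1 library 1 near the normal ones, so the groups overlapped, and the gene was not called (log2 fold change -0.51, SE 0.33, adjusted p = 0.368). Leaving out 1 library moved its log2 fold change to between -0.82 (without CUG200 library 1) and -0.32 (without CUG200 library 2), with no call. *Insr* was the most variable gene of its arm within a group. The receptor exists in 2 forms that differ by a small alternatively spliced exon, whose inclusion is altered in DM1 muscle. This exon is shown because the gene-level counts sum over both forms and so give no measure of it. In the GENCODE M21 annotation it is held by transcript *Insr*-203 and skipped by *Insr*-201 and *Insr*-204. It lies at chr8:3181702-3181737 (GRCm38, minus strand, coding exon) and is 36 bases long. In the transcript sequence below, read from GENCODE M21, capitals mark the exon and lower case letters mark 20 bases of the neighbouring exon on each side.
*Insr* alternative exon: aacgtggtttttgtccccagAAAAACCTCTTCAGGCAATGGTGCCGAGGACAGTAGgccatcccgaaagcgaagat

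*Grb2*, which codes for the adaptor that couples the receptor to SOS and RAS, was the only called gene of the receptor and adaptor arm. It was at 89.4, 85.9 and 92.6 CPM in the normal libraries and 63.2, 63.5 and 73.1 CPM in the DM1 libraries. The groups did not overlap (log2 fold change -0.42, SE 0.09, adjusted p = 0.0144). The call was lost without CUG5 library 1 (adjusted p = 0.056), CUG5 library 3 (adjusted p = 0.0829), or CUG200 library 2 (adjusted p = 0.068). *Irs1* and *Irs2* code for the docking proteins of the receptor. *Irs1* was the far more abundant of the pair, at 26.5 ± 0.739 TPM (a level scaled for transcript length) in the normal group against 1.37 ± 0.168 TPM for *Irs2*. *Irs1* was at 144 ± 5.79 CPM in the normal group and 157 ± 9.89 CPM in the DM1 group, with overlapping libraries and a log2 fold change of 0.12 (adjusted p = 0.366), and it passed the threshold with length and GC trends removed (log2 fold change 0.26, adjusted p = 0.0219). *Irs2* overlapped as well (log2 fold change 0.030 with length and GC trends removed), with a main log2 fold change of -0.10 (adjusted p = 0.794). *Ptpn1*, which codes for the phosphatase PTP1B that removes phosphate from the receptor, was at 43.2, 38.5 and 42.0 CPM and 34.2, 32.7 and 35.6 CPM. Its groups did not overlap, but the difference missed the threshold (log2 fold change -0.27, SE 0.09, adjusted p = 0.0661) and passed it only without CUG200 library 3 (adjusted p = 0.0457). *Sos1*, the RAS exchange factor bound by GRB2, did not overlap either, at 40.3, 43.6 and 46.7 CPM and 31.4, 38.9 and 38.4 CPM (log2 fold change -0.27, SE 0.11, adjusted p = 0.136). The adaptor gene *Shc1* and the ubiquitin ligase gene *Cbl* had log2 fold changes of 0.12 (adjusted p = 0.371) and 0.01 (adjusted p = 0.943), with overlapping groups. Of the 3 genes that lead from the receptor to RAS (*Shc1*, *Grb2*, and *Sos1*), 1 was called, and neither IRS gene was. Among all tested genes, 8.73% were called lower and 7.13% higher, and the RAS and IRS branches were not compared by a test.

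In the PI3K/AKT arm, *Pik3r3*, which codes for the p55-gamma regulatory subunit of PI3K, was downregulated in all 3 DM1 libraries. It was at 103, 109.6 and 108 CPM in the normal libraries and 60.5, 52.1 and 46.3 CPM in the DM1 libraries. Every DM1 library was far below every normal library, and the DM1 mean was 49.6% of the normal mean (log2 fold change -1.01, SE 0.11, adjusted p = 0.00172). Its call held in all 18 alternatives, but the fold cutoff was missed without CUG200 library 3 (log2 fold change -0.93), CUG5 library 3 (-0.991), or CUG5 library 2 (-0.997), and with length and GC trends removed (-0.96). A second gene on the same strand, *Gm49337*, shares 1289 exonic bases with *Pik3r3* and had 0 counts in all 6 libraries. The other regulatory subunit genes were not called: *Pik3r1* (p85-alpha) had a log2 fold change of -0.16 (adjusted p = 0.294) and *Pik3r2* (p85-beta) of -0.06 (adjusted p = 0.665). In TPM, *Pik3r3* was the most abundant regulatory subunit gene of the normal group (38.8 ± 2.38 TPM, against 24.0 ± 1.51 TPM for *Pik3r2* and 10.6 ± 0.567 TPM for *Pik3r1*). In the DM1 group *Pik3r2* stood first, at 23.1 ± 3.83 TPM against 17.9 ± 0.434 TPM for *Pik3r3*.

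The catalytic subunits showed no called change. *Pik3ca* (p110-alpha) was at 76.1, 72.2 and 72.8 CPM and 65.6, 85.2 and 83.6 CPM, with DM1 library 1 below and the other two DM1 libraries above the normal libraries (log2 fold change 0.08, adjusted p = 0.663). *Pik3cb* (p110-beta) was lower in every DM1 library, at 12.8, 12.9 and 11.8 CPM and 9.95, 9.88 and 11.3 CPM, and missed the threshold (log2 fold change -0.27, SE 0.12, adjusted p = 0.158). *Pdpk1*, the gene of the PDK1 kinase that activates AKT, had a log2 fold change of -0.12 (adjusted p = 0.363).

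Both AKT genes of the list were downregulated. *Akt1* codes for the isoform tied most to growth and was the most abundant of all 38 genes per length, at 135 ± 5.29 TPM in the normal group. It was at 189, 185 and 195 CPM in the normal libraries and 140.4, 129 and 141 CPM in the DM1 libraries. The groups were well apart (log2 fold change -0.47, SE 0.08, adjusted p = 0.00767), and the call held in every alternative, with adjusted p from 3.88e-05 to 0.0495. *Akt2* codes for the isoform tied most to insulin-stimulated glucose uptake. It was at 99.4, 105 and 110.3 CPM and 63.7, 76.7 and 83.8 CPM, also without overlap (log2 fold change -0.49, SE 0.11, adjusted p = 0.0196). On the TPM scale, however, DM1 library 3 (81.2 TPM) lay among the normal libraries and the call was lost (adjusted p = 0.323). It was also lost without CUG5 library 1 (adjusted p = 0.053), CUG5 library 2 (adjusted p = 0.0663), CUG5 library 3 (adjusted p = 0.0945), or CUG200 library 2 (adjusted p = 0.0654).

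Downstream of AKT, *Gsk3b*, one of the pair of genes for glycogen synthase kinase 3, was downregulated with a wide spread. It was at 58.4, 106 and 90.2 CPM in the normal libraries and 30.3, 39.2 and 46.8 CPM in the DM1 libraries. The groups did not overlap, and normal library 1 was well below the other two normal libraries (log2 fold change -1.13, SE 0.25, adjusted p = 0.0281). The call was lost without CUG5 library 2, CUG5 library 3, CUG200 library 1, CUG200 library 2, or CUG200 library 3, where the adjusted p was 0.0624, 0.096, 0.098, 0.0872, or 0.0543. With all 6 libraries it was also lost when genes with as little as 1 count were kept (adjusted p = 0.0614). Its paralog *Gsk3a* overlapped between the groups, at 68.4 ± 2.62 CPM and 65.4 ± 8.81 CPM (log2 fold change -0.07, adjusted p = 0.738), and it shares 820 exonic bases with an antisense gene. Among the FOXO genes, whose proteins drive atrophy genes when AKT is inactive, *Foxo1* and *Foxo4* were lower in every DM1 library and missed the threshold, with log2 fold changes of -0.34 (adjusted p = 0.0889) and -0.24 (adjusted p = 0.160). *Foxo3* was higher in every DM1 library in CPM, at 37.1, 36.8 and 34.4 CPM and 37.3, 43.3 and 46.1 CPM, and also missed it (log2 fold change 0.23, SE 0.10, adjusted p = 0.162). *Foxo3* passed without CUG200 library 1 (adjusted p = 0.0439) and with length and GC trends removed (adjusted p = 0.0129). In TPM its groups overlapped, with DM1 library 1 (8.04 TPM) below every normal library (10.4, 9.30 and 8.76 TPM), and its log2 fold change on log2(TPM + 1) was 0.079 (adjusted p = 0.821).

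**Figure D3:**
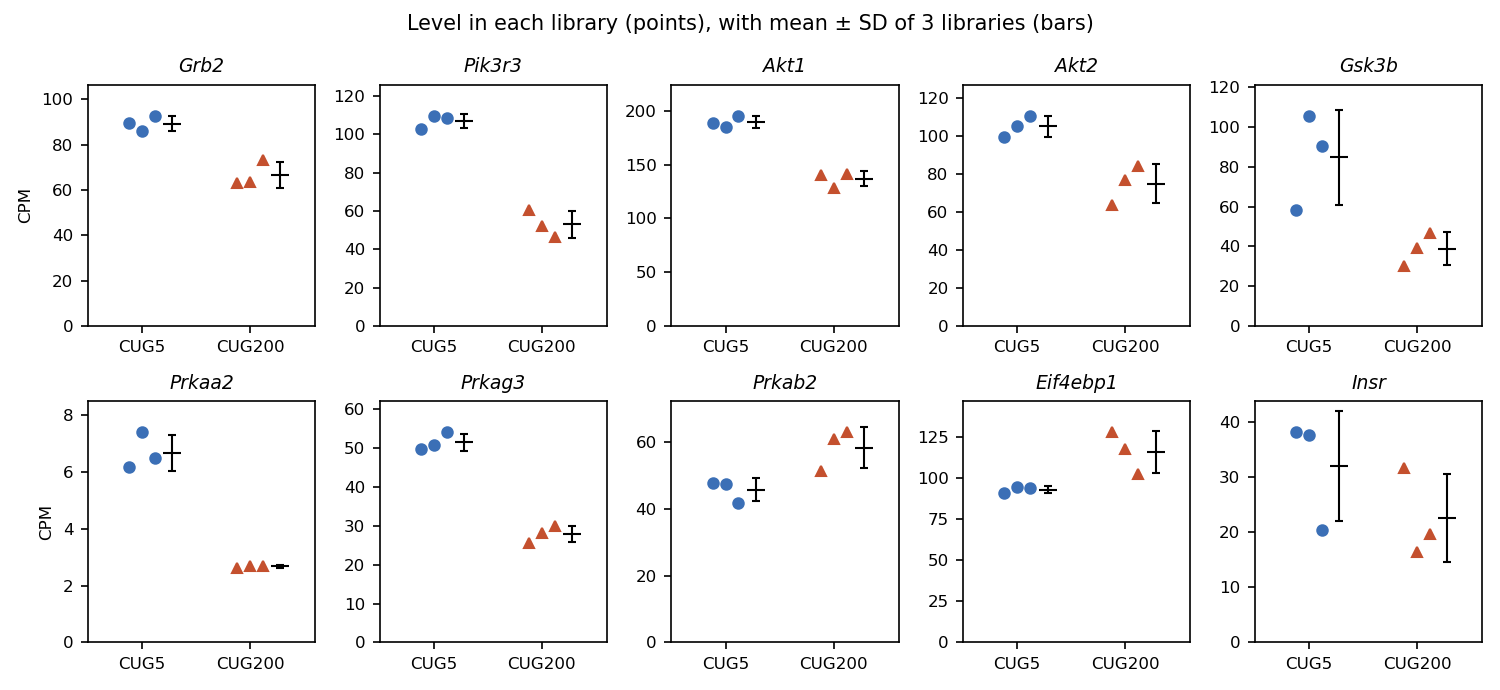
CPM (y axis, from 0) in each library of the normal and DM1 groups (x axis) for the 7 downregulated genes and for *Prkab2*, *Eif4ebp1*, and *Insr*, which were not called. Points are libraries and bars are the mean ± SD of 3 libraries. *Prkaa2* stands at 2.62 to 2.71 CPM in the DM1 group, whereas the *Insr* groups overlap.

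The mTOR arm held no called gene by edgeR, beside 1 higher and 0 lower by DESeq2 and 1 in each direction at an unadjusted p under 0.05. *Eif4ebp1*, the gene of the translation repressor 4E-BP1 that mTOR complex 1 phosphorylates, came closest. It was at 90.7, 94.3 and 94.2 CPM in the normal libraries and 128, 118 and 102 CPM in the DM1 libraries. All DM1 libraries were above all normal ones, and the difference missed the threshold by little (log2 fold change 0.32, SE 0.10, adjusted p = 0.0545). It passed in 3 of the 12 alternatives that kept all 6 libraries. These were DESeq2 (adjusted p = 0.0288), 10 counts required in every library (adjusted p = 0.0429), and counts divided by 4 (adjusted p = 0.0385). It also passed without CUG200 library 3 (adjusted p = 0.00916) and without no other library. *Rps6kb1*, the gene of the S6 kinase S6K1, was at 96.1, 80.3 and 95.2 CPM and 88.6, 63.4 and 57.8 CPM, with DM1 library 1 inside the normal range (log2 fold change -0.37, SE 0.16, adjusted p = 0.156), and passed without that library (adjusted p = 0.0123). In TPM its groups did not overlap, at 44.7, 34.9 and 39.2 TPM and 31.4, 26.4 and 28.2 TPM, and it was not called on log2(TPM + 1) (adjusted p = 0.0796). *Rps6kb2* (S6K2) overlapped between the groups (log2 fold change -0.19, adjusted p = 0.616).

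The kinase gene *Mtor* was at 40.7 ± 2.50 CPM and 37.4 ± 3.25 CPM (log2 fold change -0.12, adjusted p = 0.448, and 0.026 with length and GC trends removed). *Rptor*, which codes for the scaffold of mTOR complex 1, was at 61.5, 60.3 and 69.6 CPM and 48.6, 51.8 and 65.7 CPM (log2 fold change -0.20, adjusted p = 0.304), and passed the threshold without CUG200 library 3 (adjusted p = 0.0304). *Rictor*, which codes for the matching scaffold of mTOR complex 2, was at 103, 106 and 107 CPM and 112, 106 and 112 CPM (log2 fold change 0.06, adjusted p = 0.639). *Tsc1* and *Tsc2*, whose products together hold mTOR complex 1 in check, had log2 fold changes of -0.16 (adjusted p = 0.341) and 0.05 (adjusted p = 0.825). *Tsc2* shares 693 exonic bases with *Pkd1* on the opposite strand. *Rheb*, the small GTPase that activates mTOR complex 1, was at 69.1, 72.0 and 68.9 CPM and 98.6, 81.1 and 62.6 CPM. Its DM1 libraries spread on both sides of the tightly grouped normal libraries (log2 fold change 0.21, adjusted p = 0.395), and it passed without CUG200 library 3 (adjusted p = 0.0328).

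In the AMPK arm, 2 subunit genes fell. *Prkaa2* codes for the alpha-2 catalytic subunit, the main catalytic form of mature muscle fibers. It was at 6.16, 7.39 and 6.48 CPM in the normal libraries and 2.62, 2.70 and 2.71 CPM in the DM1 libraries, the DM1 group with the smallest SD relative to its mean in the list. The DM1 mean was 40.0% of the normal mean, the largest fold change among the 38 genes in the edgeR fit of the counts (log2 fold change -1.32, SE 0.15, adjusted p = 0.00198), and it passed the fold cutoff without any 1 of the 6 libraries. On log2(TPM + 1), a scale that understates the change of genes as low as this one, its log2 fold change was -0.66 and missed the fold cutoff, whereas *Pik3r3* was at -1.07 and *Gsk3b* at -1.04, and on log2(TPM + 0.1) it was -1.29. *Prkag3*, which codes for the gamma-3 subunit found almost only in skeletal muscle, was at 49.7, 50.7 and 53.9 CPM and 25.6, 28.1 and 29.9 CPM. Every DM1 library was far below every normal library (log2 fold change -0.88, SE 0.09, adjusted p = 0.00167). Both calls held in all 18 alternatives.

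The other AMPK genes did not pass the threshold. *Prkaa1*, the alpha-1 catalytic subunit gene, was at 152, 173 and 177 CPM and 147, 161 and 152 CPM (log2 fold change -0.13, adjusted p = 0.387). In TPM its groups did not overlap, at 58.9, 61.5 and 61.8 TPM and 44.8, 52.5 and 56.6 TPM, and it was not called on log2(TPM + 1) (adjusted p = 0.253). *Prkab1* (beta-1) was lower in every DM1 library in CPM, with a log2 fold change of -0.22 (adjusted p = 0.203), but in TPM DM1 library 3 (36.8 TPM) lay above every normal library. *Prkab2* (beta-2), although a muscle-biased subunit too, differed in the other direction, at 47.8, 47.4 and 41.8 CPM and 51.2, 60.7 and 62.8 CPM. Its groups did not overlap in CPM and it missed the threshold (log2 fold change 0.35, SE 0.10, adjusted p = 0.0516). In TPM the groups overlapped, at 18.1, 16.5 and 14.7 TPM and 15.9, 19.5 and 24.2 TPM (log2 fold change 0.24 on log2(TPM + 1), adjusted p = 0.407). On counts it passed with DESeq2 (adjusted p = 0.0263), without CUG200 library 1 (adjusted p = 0.0171), and with length and GC trends removed (adjusted p = 0.0157). It also passed with 10 counts required in every library (adjusted p = 0.0437) and with counts divided by 4 (adjusted p = 0.0429). *Prkag1* (gamma-1) overlapped between the groups, with a log2 fold change of -0.07 (adjusted p = 0.643). It shares 950 exonic bases with the antisense gene *B130046B21Rik*, which had 369 to 444 counts in the normal libraries and 486 to 505 in the DM1 libraries, beside 3941 to 5670 counts of *Prkag1* in a library. *Prkag2* (gamma-2) was at 7.34, 6.51 and 6.84 CPM and 3.55, 5.10 and 6.53 CPM (log2 fold change -0.45, adjusted p = 0.191) and passed without CUG200 library 3 (adjusted p = 0.042). *Stk11*, the gene of the upstream kinase LKB1, was nearly level, at 51.6 ± 1.12 CPM and 49.0 ± 2.64 CPM (log2 fold change -0.07, adjusted p = 0.590).

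Because several of these proteins act as interchangeable subunits or isoforms, the share of each gene in the summed TPM of its family was computed in every library. Over 15 shares in 9 families the exact two-sided permutation test of 3 against 3 libraries cannot go below p = 0.1, so no share could be called. The shares of a family sum to the whole, so a lower share of 1 gene raises those of the others, and they are given as a description and not as separate observations. *Pik3r3* made up 51.0, 55.0 and 52.6% of the PI3K regulatory subunit TPM in the normal libraries and 39.9, 36.1 and 31.4% in the DM1 libraries. *Pik3r2* made up 34.0, 31.5 and 32.5% and 43.3, 44.8 and 48.4%. The leading regulatory subunit was thus *Pik3r3* in each normal library and *Pik3r2* in each DM1 library.

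Among the AMPK gamma subunits, *Prkag3* made up 29.0, 30.7 and 32.1% in the normal libraries and 19.4, 20.5 and 20.1% in the DM1 libraries. *Prkag1*, the widely expressed gamma subunit gene, made up 64.3, 62.8 and 61.6% and 75.8, 71.3 and 71.5%. *Prkab2* made up 33.6, 31.8 and 33.8% of the beta subunit TPM in the normal libraries and 40.6, 43.2 and 39.7% in the DM1 libraries. *Prkaa2* was a minor part of the alpha subunit TPM in both groups, at 2.29, 2.41 and 2.07% and 1.02, 0.955 and 1.02%, with *Prkaa1* making up the rest. *Gsk3b* made up 20.9, 30.4 and 28.1% and 15.3, 14.7 and 17.1% of the GSK3 TPM.

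**Figure D4:**
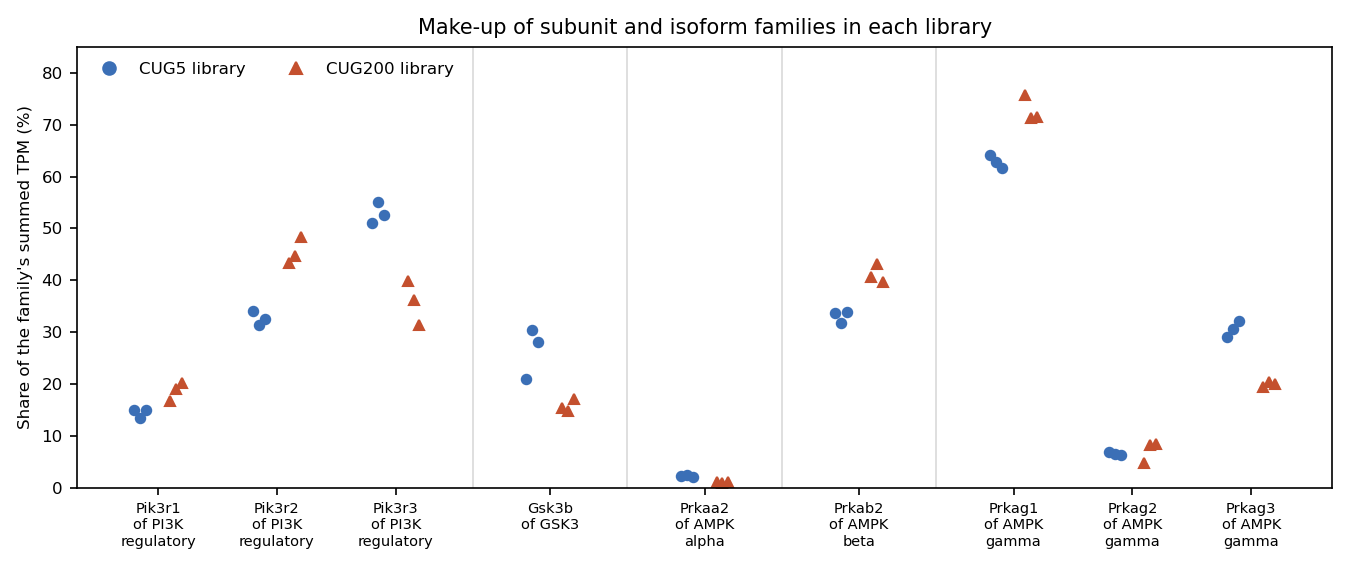
Share of the family's summed TPM in percent (y axis) for 9 genes of the PI3K regulatory, GSK3, and AMPK subunit families (x axis). Circles are the 3 normal and triangles the 3 DM1 libraries. The shares of *Pik3r3* (52.9% ± 2.02 against 35.8% ± 4.26, SD, n = 3) and *Prkag3* (30.6% ± 1.56 against 19.98% ± 0.53) are lower in every DM1 library.

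The upstream sequences of *Pik3r3*, *Prkaa2*, *Prkag3*, and *Akt1* are shown because these 4 genes fell together and were called in every alternative. Windows from 250 bases before to 50 bases after the most upstream RefSeq start site were taken from RefSeq (GRCm38.p6), where 34 of the 38 members had one. They were searched on both strands for the E-box CAGCTG, the letters bound by the myogenic factors MyoD and myogenin, which read the same on both strands, and for the forkhead letters TGTTTAC or GTAAACA, bound by FOXO proteins. The E-box stood in 3 of 34 member windows (8.82%: *Pik3r3*, *Prkag3*, and *Tsc2*) and in 16.1% of the windows of all 27025 genes. The forkhead letters stood in 2 of 34 member windows (5.88%: *Akt1* and *Stk11*) and in 3.52% of all. A match describes letters only and is no measure of binding. Below are the 250 bases before each start site, 5′ to 3′ on the gene's strand, with matches in capitals. The E-box begins at position -208 in *Pik3r3* and -40 in *Prkag3*, the forkhead match begins at position -161 in *Akt1* (start site at 0), and *Prkaa2* has neither.
*Pik3r3* (chr4:116221166-116221415, plus strand): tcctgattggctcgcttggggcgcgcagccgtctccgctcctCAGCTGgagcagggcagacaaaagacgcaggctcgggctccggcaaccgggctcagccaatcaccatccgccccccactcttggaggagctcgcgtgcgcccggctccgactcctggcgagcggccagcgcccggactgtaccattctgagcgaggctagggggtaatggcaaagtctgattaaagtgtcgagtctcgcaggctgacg
*Prkaa2* (chr4:105109899-105110148, minus strand): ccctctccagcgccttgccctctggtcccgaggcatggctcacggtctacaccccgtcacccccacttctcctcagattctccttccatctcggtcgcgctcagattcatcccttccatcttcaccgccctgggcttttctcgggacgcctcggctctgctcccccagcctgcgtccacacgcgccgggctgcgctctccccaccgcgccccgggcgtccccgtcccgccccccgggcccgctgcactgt
*Prkag3* (chr1:74748956-74749205, minus strand): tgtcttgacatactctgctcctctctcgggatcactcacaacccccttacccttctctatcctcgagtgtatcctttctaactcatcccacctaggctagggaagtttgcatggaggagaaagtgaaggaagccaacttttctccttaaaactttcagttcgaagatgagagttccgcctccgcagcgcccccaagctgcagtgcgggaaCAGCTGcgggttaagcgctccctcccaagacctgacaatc
*Akt1* (chr12:112674885-112675134, minus strand): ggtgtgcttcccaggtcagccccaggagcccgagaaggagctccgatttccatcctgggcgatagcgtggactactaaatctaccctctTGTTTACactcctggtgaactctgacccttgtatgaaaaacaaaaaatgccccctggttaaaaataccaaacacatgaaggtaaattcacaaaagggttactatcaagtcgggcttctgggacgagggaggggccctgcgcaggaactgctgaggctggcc

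In the GRCm38 annotation *Pik3r3* spans chr4:116221618-116303056 on the plus strand, *Prkaa2* chr4:105029874-105109890 on the minus strand, *Prkag3* chr1:74738922-74749221 on the minus strand, and *Akt1* chr12:112653821-112674884 on the minus strand. The other 3 called genes are *Akt2* at chr7:27591552-27640826 (plus), *Gsk3b* at chr16:38089001-38246084 (plus), and *Grb2* at chr11:115644045-115708597 (minus). The stretch printed for *Prkag3* lies inside this span of its gene, since the GENCODE start of the gene is further upstream than the RefSeq start used for the window, whereas the other 3 printed stretches lie outside their spans. All 7 are protein coding, and counts refer to their exons. Exonic bases are also shared with opposite-strand genes that had counts in every library by *Prkag2* (795 bases, with *Prkag2os2*), *Stk11* (232, with *Cbarp*), *Rps6kb1* (155, with *Rnft1*), *Rptor* (84, with *Rptoros*), *Rps6kb2* (45, with *Coro1b*), and *Pik3r2* (45, with *6330537M06Rik*).

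Around the 38 members, 120 further genes of the same pathways were counted, of which 111 passed the filter. In the DM1 group 22 of them were lower (19.8%) and 8 were higher (7.21%), beside 8.73% and 7.13% of all tested genes. These counts rested on single libraries: lower genes numbered 11 without CUG5 library 1 or 2, 8 without CUG5 library 3, 14 without CUG200 library 1, and 12 without CUG200 library 2, and higher genes numbered 2, 4, 1, and 2 without CUG5 library 1, 2, 3, and CUG200 library 2. Next to the receptor, 3 of 18 tested genes were lower and 0 higher (1 higher at an unadjusted p under 0.05, 0 by DESeq2). Next to PI3K and AKT, 4 of 22 were lower and 1 was higher. With length and GC trends removed, 1 gene next to the receptor was lower and 2 were higher, and 2 genes next to PI3K and AKT were lower and 1 was higher.

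The neighbours of mTOR, the longest of these lists, held 10 lower (25.6%) and 6 higher genes (15.4%) among 39 tested. Among all tested genes, 8.73% were called lower and 7.13% higher. The mTOR arm itself had 0 of 9, and the difference between this list and the arm was not tested. The genes named in this paragraph were chosen after their values were seen. *Rragd* and *Rragc* code for RAG GTPases that bring mTOR complex 1 to the lysosome. *Rragd* was at 21.6 ± 2.04 CPM in the normal group and 11.4 ± 0.345 CPM in the DM1 group, without overlap (log2 fold change -0.93, SE 0.11, adjusted p = 0.0024). *Rragc* fell by 0.54 on the log2 scale (adjusted p = 0.0051). *Fnip1* and *Fnip2*, whose products act with folliculin on these GTPases, fell by 0.46 (adjusted p = 0.0062) and 0.59 (adjusted p = 0.0081). *Deptor*, the gene of an inhibitory subunit of both mTOR complexes, was at 161, 161, and 169 CPM and 88.5, 103, and 103 CPM (log2 fold change -0.74, SE 0.09, adjusted p = 0.00249). Each of these 5 genes was called without any 1 of the 6 libraries. On the other side, *Rps6*, which codes for the ribosomal protein phosphorylated by S6 kinase, was upregulated, at 704 ± 28.5 CPM and 1023 ± 127 CPM (log2 fold change 0.54, SE 0.10, adjusted p = 0.0119), a call lost without CUG5 library 1 (adjusted p = 0.0528) or CUG5 library 3 (adjusted p = 0.0625). *Lamtor3* and *Lamtor5* code for subunits of the Ragulator complex, which anchors the RAG GTPases at the lysosome, and were the 2 called genes of the 5 Ragulator genes. *Lamtor3* had a log2 fold change of 0.38 (SE 0.10, adjusted p = 0.0367), with an adjusted p of 0.131 without CUG5 library 1, 0.132 without CUG5 library 3, 0.0595 without CUG200 library 1, and 0.118 without CUG200 library 2. *Lamtor5* had a log2 fold change of 0.41 (SE 0.12, adjusted p = 0.0449), was called only without CUG200 library 3 (adjusted p = 0.0143) and lay between 0.0685 and 0.148 without any other library, and its adjusted p was 0.195 with length and GC trends removed. *Tbc1d7*, which codes for the third subunit of the TSC complex beside the members *Tsc1* and *Tsc2*, which were not called, had a log2 fold change of 0.67 (SE 0.13, adjusted p = 0.0119), a call lost without CUG5 library 1 (adjusted p = 0.053) or CUG5 library 3 (adjusted p = 0.0563). With length and GC trends removed, 7 of the 39 genes were lower and 5 were higher.

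Among the AMPK neighbours 2 of 19 genes were lower (10.5%) and 1 was higher (5.26%), near the 8.73% and 7.13% of all tested genes. Of 13 metabolic target genes 3 were lower (23.1%) and 0 were higher (0 at an unadjusted p under 0.05 and 0 by DESeq2). With length and GC trends removed, 1 AMPK neighbour was lower and 1 was higher, and 4 metabolic target genes were lower and 0 were higher. *Pygm*, the muscle glycogen phosphorylase gene, was at 16.5, 21.5, and 24.3 CPM in the normal libraries and 6.20, 7.59, and 8.84 CPM in the DM1 libraries (log2 fold change -1.46, SE 0.18, adjusted p = 0.0027). *Ppp1r3a*, which codes for the muscle subunit that directs protein phosphatase 1 to glycogen, was low in all libraries, at 1.26 ± 0.0428 CPM and 0.374 ± 0.260 CPM (log2 fold change -1.74, SE 0.46, adjusted p = 0.0341). The *Ppp1r3a* call held only without CUG200 library 1 (adjusted p = 0.00633), and without any other library the adjusted p lay between 0.0541 and 0.112. *Slc2a4*, the gene of the insulin-responsive glucose transporter GLUT4, chosen after its values were seen, was low, at 0.845, 0.603, and 1.59 CPM and 0.619, 0.0702, and 0.541 CPM. Only CUG200 library 2, with 5 counts, was near the detection limit of 3 counts, which are worth 0.0357 to 0.0489 CPM. The counts of *Slc2a4* in the other libraries were 36 to 111. Its groups overlapped (log2 fold change -1.30, adjusted p = 0.247).

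**Figure D5:**
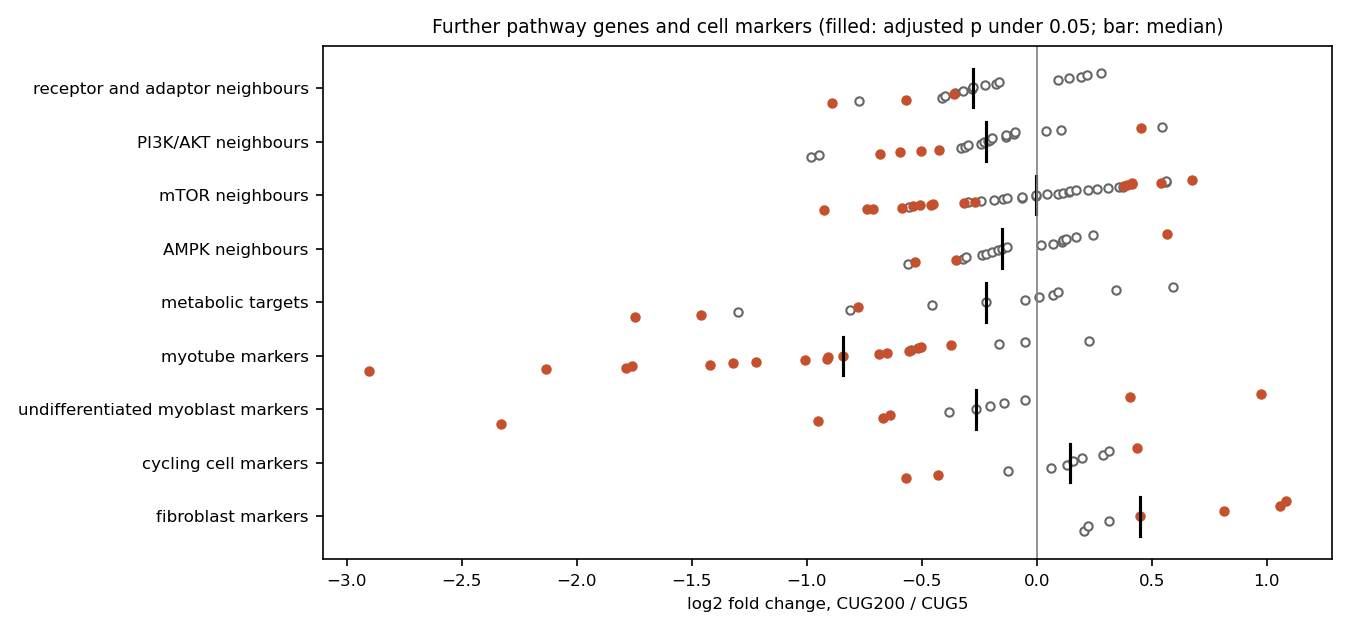
Log2 fold change of DM1 over normal (x axis) for the tested genes of 5 lists of further pathway genes and 4 lists of cell markers (y axis). Each point is a gene, filled where the adjusted p was under 0.05, and the bar is the list's median. The myotube markers reach from -2.90 to 0.23 with a median of -0.84, and the mTOR neighbours spread to both sides of 0.

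Of the 21 myotube markers, 17 were called lower in the DM1 group, the direction of every called member. These members were picked for being called, so the shared direction is no test of a link. *Mymx*, a myotube marker chosen after its values were seen, was higher in every DM1 library and not called (log2 fold change 0.23, adjusted p = 0.0732). Of the myotube markers past the fold cutoff, *Myh8*, *Myh7*, and *Actn2* had the smallest p, with log2 fold changes of -2.90, -2.13, and -1.22, beside -1.32 for *Prkaa2*, -1.01 for *Pik3r3*, and -0.88 for *Prkag3*. Of the 12 undifferentiated myoblast markers 11 were tested, with 4 lower and 2 higher. Among the lower ones *Hey1*, a NOTCH target, fell by 2.33 on the log2 scale (adjusted p = 0.00198). The 2 higher ones, chosen after their values were seen, were *Cd34* (log2 fold change 0.97, adjusted p = 0.00305) and *Id2* (0.41, adjusted p = 0.0304). *Cd34* was called without any 1 of the 6 libraries, and *Id2* only without CUG200 library 3. Of 10 cycling cell markers 2 were lower and 1 was higher. Lower ones numbered 0 without CUG5 library 1, CUG5 library 3, or CUG200 library 2. Higher ones numbered 4 without CUG200 library 3 and 0 without any other library. The fibroblast markers past the fold cutoff were the matrix genes *Col1a1* and *Dpt*, with log2 fold changes of 1.06 (adjusted p = 0.000916) and 1.08 (adjusted p = 0.00304). The part of these markers in the results for the 38 genes was not tested.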

How the data were processed

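RNA-seq values of 6 libraries (3 normal, 3 DM1) were analysed at differentiation day 4, with groups and replicate numbers from the sample labels. The authors trimmed reads with Trim Galore, aligned them to GRCm38 with HISAT2, and quantified genes with StringTie. They deposited unnormalized counts per gene, and per library the coverage (signal), FPKM, and TPM values of each gene, which StringTie scales for length and depth. In genes with 1 transcript a deposited count equals about 74.9 aligned bases. Read length, strand setting, and StringTie version are not given in the sources used here, so reads of overlapping antisense genes cannot be told apart. All 6 count columns were used.

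From these files, counts were filtered with filterByExpr (minimum count 10), scaled by TMM, and tested with edgeR 4.0.16 (quasi-likelihood, robust, R 4.3.3) over 19005 genes with Benjamini-Hochberg adjustment. CPM were computed from TMM-scaled library sizes and family shares from TPM. Alternatives were DESeq2 1.42.0, its size factors, library sizes alone, filters of 1 count or of 10 counts in every library, no robust estimation, counts divided by 4, limma-trend 3.58.1 on log2(TPM + 1) or log2(TPM + 0.1), a replicate block, summing of same-strand overlapping genes, each library left out, and removal of length and GC trends. The scripts were tested on simulated counts. There, 12 of 100 genes with a set log2 change of 0.5 were called, and 78 of 100 with a set change of 1. False calls numbered 8 over 18448 tested genes. A member that was not called may therefore still differ by such an amount. The members, gene lists, and marker lists were chosen with earlier results of these data known. All 38 members are named. From the other lists, genes past both cutoffs are named, at most 3 per list and direction, with the most abundant myotube marker, and any other gene is named as chosen after its values were seen. The detection limit of 3 counts covers counting error only. Gene spans and transcripts come from GENCODE M21, promoter windows from RefSeq. The values of 1 further pathway gene, and the family shares that need it, are not reported here.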

Additional observations from a re-analysis of the deposited data

How the results depend on the processing

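Of 684 member values under 18 alternatives, 635 kept their direction and side of the threshold, 15 lost and 17 gained a call, and 17 changed sign. *Pik3r3*, *Prkaa2*, *Prkag3*, and *Akt1* were called under every alternative. With 3 libraries per group, and counts whose spread between libraries exceeds counting error, single libraries decide many calls, and the causes were not tested. Upregulated members numbered 2 (main 0) with DESeq2, with 10 counts required in every library, and with counts divided by 4, and 3 with length and GC trends removed, an alternative chosen after seeing the data (*Irs1*, *Foxo3*, and *Prkab2*). On the log2 TPM scale with pseudocounts of 1 and 0.1 (limma-trend), all lower genes numbered 816 and 850 (main 1660), all higher genes 427 and 434 (main 1356), lower further pathway genes 8 and 9 (main 22), and higher ones 1 and 1 (main 8). On log2(TPM + 0.1) the arm medians were -0.30 (receptor and adaptor), -0.37 (PI3K/AKT), -0.21 (mTOR), and -0.25 (AMPK), and with length and GC trends removed -0.064 (receptor and adaptor), -0.16 (PI3K/AKT), and 0.026 (mTOR). The median of all genes was -0.09 on log2(TPM + 0.1).

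Leaving out 1 library at a time gave 485 to 2111 lower and 543 to 1678 higher genes, 4 to 9 lower and 0 to 2 higher members, 1 to 3 members past the fold cutoff, 8 to 25 lower and 1 to 11 higher further pathway genes, 0 to 1 higher myotube markers, 1 to 2 higher myoblast markers, 0 to 2 lower and 0 to 4 higher cycling markers, and arm medians from -0.27 to -0.031 (receptor and adaptor), -0.25 to -0.19 (PI3K/AKT), -0.20 to -0.015 (mTOR), and -0.22 to -0.11 (AMPK). The difference in family share (DM1 minus normal, percentage points) ranged from -1.998 to 6.33 for *Rps6kb2* and -0.053 to 1.76 for *Prkag2*, and from coverage it was -0.037 for *Prkag2*. The sign of the log2 fold change turned, with no call, for *Irs1* (-0.0020 and -0.0024), *Shc1* (-0.053 and -0.054), *Pik3ca* (-0.14 and -0.15), and *Cbl* (-0.037 and -0.042) on the TPM scale with pseudocounts of 1 and 0.1, for *Cbl* with library sizes alone (-0.0061), and for *Irs2* (0.030) and *Mtor* (0.026) with length and GC trends removed. With 1 library left out, it ranged across 0 for *Irs2* (-0.23 to 0.097), *Cbl* (-0.052 to 0.097), *Gsk3a* (-0.16 to 0.049), *Tsc2* (-0.080 to 0.15), and *Rps6kb2* (-0.32 to 0.092).

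Same-numbered libraries correlated at 0.07, 0.02, and 0.03, and not every library correlated best with its own number. Correlations this weak among so few libraries cannot tell whether same-numbered libraries share a dish, day, or batch. With a replicate block, 7 members were lower and 0 higher (main 7 and 0).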
